A study of Mus musculus with 14 samples.

Results

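The enzymes that remove superoxide and hydrogen peroxide were followed here as 10 genes, namely catalase (Cat), the 3 superoxide dismutases (Sod1, Sod2 and Sod3), 3 glutathione peroxidases (Gpx1, Gpx3 and Gpx4) and 3 peroxiredoxins (Prdx3, Prdx5 and Prdx6). They were taken by symbol from a table of 24054 genes measured by RNA-seq of mouse left ventricle, and each of the 10 has a single row there. The 14 libraries form 3 groups, all given the genotype C56Bl6. The 5 libraries labelled HFpEF-FoxO1-sh came from animals given a high-fat diet with L-NAME for 6 weeks and, for 4 weeks, an AAV (adeno-associated virus) that encodes a short hairpin RNA against Foxo1. The 4 libraries labelled HFpEF-scr had the same diet for 6 weeks and an AAV with a scrambled hairpin for 4 weeks, and the 5 control libraries had a standard diet for 10 weeks with no AAV named. L-NAME inhibits nitric oxide synthases, and together with the fat-rich diet it is used as a mouse model of heart failure with preserved ejection fraction (HFpEF). The AAV serotype and the promoter of the hairpin are not given in the sources used here, so the cells that carried it are not known. Because the control group differs from both other groups in diet and in AAV, the effects of diet and AAV cannot be told apart in a comparison with control. Nothing in the labels ties a library to its own animal, and every p-value below measures the spread between these libraries.

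Superoxide leaks from the respiratory chain and is made by oxidases. Superoxide dismutases turn it into hydrogen peroxide, Sod1 mainly in the cytosol, Sod2 in the mitochondrial matrix and Sod3 outside the cell. Catalase breaks hydrogen peroxide down in peroxisomes, glutathione peroxidases reduce peroxides with glutathione, and peroxiredoxins do so through a reactive cysteine that thioredoxin mostly restores. Heart muscle is dense in mitochondria and burns fatty acids, and both mitochondria and peroxisomes make hydrogen peroxide while doing so.

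The stretches directly upstream of the genes whose levels changed are printed first, because against control both Cat and Sod1 rose and Gpx1 fell where the label was HFpEF-FoxO1-sh. Each is the 250 bases before a RefSeq transcription start on GRCm38.p6, read 5′ to 3′ along the gene, and 8 of the 10 genes had an entry (all but Sod3 and Prdx6). Capitals mark matches, on either strand, to any of 5 short motifs, which are the FoxO core GTAAACA, the antioxidant response core TGACNNNGC, the nuclear receptor hexamer AGGTCA, the GC box GGGCGG and the CCAAT box CCAAT. Neighbouring GC boxes can overlap.
Cat, chr2:103485154-103485403, minus strand: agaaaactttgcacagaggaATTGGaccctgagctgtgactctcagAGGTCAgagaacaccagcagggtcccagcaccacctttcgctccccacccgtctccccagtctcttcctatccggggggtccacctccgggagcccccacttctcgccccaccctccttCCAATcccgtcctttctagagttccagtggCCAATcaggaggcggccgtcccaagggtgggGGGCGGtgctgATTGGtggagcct
Sod1, chr16:90220512-90220761, plus strand: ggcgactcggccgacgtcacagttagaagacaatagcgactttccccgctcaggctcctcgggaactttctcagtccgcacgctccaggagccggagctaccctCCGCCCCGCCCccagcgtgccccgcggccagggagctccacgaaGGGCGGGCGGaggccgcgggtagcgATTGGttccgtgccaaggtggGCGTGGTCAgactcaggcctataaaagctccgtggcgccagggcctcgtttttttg
Gpx1, chr9:108338830-108339079, plus strand: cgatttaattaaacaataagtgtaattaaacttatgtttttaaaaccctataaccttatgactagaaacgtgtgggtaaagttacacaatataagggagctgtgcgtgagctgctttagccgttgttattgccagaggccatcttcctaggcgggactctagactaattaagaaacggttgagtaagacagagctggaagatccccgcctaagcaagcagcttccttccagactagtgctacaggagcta
Prdx3, chr19:60874539-60874788, minus strand: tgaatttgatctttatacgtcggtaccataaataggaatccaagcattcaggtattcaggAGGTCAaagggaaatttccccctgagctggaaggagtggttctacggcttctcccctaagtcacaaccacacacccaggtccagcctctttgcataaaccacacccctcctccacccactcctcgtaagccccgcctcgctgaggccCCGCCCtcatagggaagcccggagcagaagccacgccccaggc
Prdx5, chr19:6910107-6910356, minus strand: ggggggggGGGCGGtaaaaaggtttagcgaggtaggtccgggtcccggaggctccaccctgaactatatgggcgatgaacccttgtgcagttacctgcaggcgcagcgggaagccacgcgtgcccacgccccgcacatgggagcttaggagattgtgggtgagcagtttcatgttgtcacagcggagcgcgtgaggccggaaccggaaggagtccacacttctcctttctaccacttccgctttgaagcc

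None of the 8 genes held GTAAACA in this window, and of the 32851 RefSeq mouse promoters searched in the same way 3.17% did. TGACNNNGC occurred in 10.2% of all promoters and, among the 8 genes, in Sod1 alone, 56 bases before its start. AGGTCA occurred in 14% of all promoters. It stood 204 bases before the start of Cat, 190 bases before that of Prdx3 and upstream of 1 of the starts of Gpx4. The Cat window had 4 CCAAT boxes and 1 GC box, the Sod1 window 4 GC boxes and 1 CCAAT box, and the shares of all promoters with at least 1 were 33.8% for CCAAT and 32.7% for GGGCGG. The Gpx1 window held none of the 5 motifs and was 42% G and C, against 62% for Cat, 66.4% for Sod1 and a median of 52.4% over all promoters. RefSeq and the other annotation used here (GENCODE vM21) place starts differently. The windows of Cat, Sod1, Gpx1 and Prdx3 reach past the outermost GENCODE start of the gene, and those of Sod2, Gpx3 and 3 of the starts of Gpx4 lie inside it. These matches describe letters in a window and say nothing on whether a factor bound there.

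In GENCODE vM21 on GRCm38 all 10 are protein-coding genes. Cat spans chr2:103453849-103485160, Sod1 chr16:90220754-90226329, Sod2 chr17:13006846-13040063 and Sod3 chr5:52363791-52371418. Gpx1 spans chr9:108338903-108340343, Gpx3 chr11:54902453-54910377 and Gpx4 chr10:80047166-80056439. Prdx3 spans chr19:60864051-60874556, Prdx5 chr19:6906697-6910106 and Prdx6 chr1:161240112-161251219. Prdx5 is the only one whose exons overlap those of another gene, since 409 of its 1447 exon bases (28.3%) lie opposite to Trmt112, which is read from the other strand.

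Library totals ran from 13174118 to 21247155 expected counts, and 13588 genes passed the filter on low counts, all 10 antioxidant genes among them. Levels are given as CPM, counts per 1000000 counts of a library, after TMM scaling. Summed cardiomyocyte markers were 81423 to 91627 CPM in libraries labelled HFpEF-FoxO1-sh, 78112 to 87723 CPM in HFpEF-scr and 87540 to 94530 CPM in control. In HFpEF-scr against control all 6 cardiomyocyte markers had log2 fold changes below 0 and 1 of them fell. Markers of adipocytes, T cells, B cells and atrial muscle summed to at most 3.41 CPM in any library. HFpEF-scr 1 stood apart in its blood content, with 5755 CPM of summed red cell markers against at most 1635 CPM in any other library. Its endothelial sum was also the highest of any library, at 1352 CPM against at most 1086 CPM elsewhere. Its cardiomyocyte sum was the lowest, at 78112 CPM. The hairpin's target was not lower at the level of mRNA. Foxo1 had 41.5, 46.0, 39.3, 43.8 and 41.4 CPM in HFpEF-FoxO1-sh 1 to 5, 44.8, 48.3, 41.0 and 40.1 CPM in HFpEF-scr 1 to 4 and 44.2, 42.2, 42.4, 47.0 and 44.4 CPM in control 1 to 5. The 3 groups overlapped. The libraries labelled HFpEF-FoxO1-sh differed from HFpEF-scr by a log2 fold change of -0.04 ± 0.06 (SE, adjusted p = 0.780, edgeR), with a 95% interval that allows between a fall of 10.9% and a rise of 6.42%. The Foxo1 mRNA thus does not bear out the label, and HFpEF-FoxO1-sh below names what the libraries are labelled as.

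Set against control, the libraries labelled HFpEF-FoxO1-sh had more mRNA for catalase (45.3% more), the cytosolic dismutase Sod1 (31.4%) and the mitochondrial peroxiredoxin Prdx3 (8.51%), and 26.7% less for the cytosolic glutathione peroxidase Gpx1. So 3 of the 10 genes rose and 1 fell at an adjusted p under 0.05 (edgeR's quasi-likelihood test, Benjamini-Hochberg adjustment over all genes tested), where the share called in either direction among all genes was 13.0% and the shares called higher and lower were 6.68% and 6.28%. An unadjusted p under 0.05 was reached by 6 of the 10, against 27.0% of all genes, and for 5 of the 10 the groups did not overlap, against 12.1%. HFpEF-scr against control gave 2 rises, catalase by 39% and Sod1 by 16.4%, and no fall, where 7.37% of all genes were called, 3.66% higher and 3.70% lower. In that comparison 4 of the 10 genes had an unadjusted p under 0.05, against 23.6% of all genes, and 3 had groups that did not overlap, against 8.93%. The libraries labelled HFpEF-FoxO1-sh against HFpEF-scr gave 2 rises, Sod1 by 12.9% and Prdx5 by 11.2%, and no fall, where 3.58% of all genes were called, 1.32% higher and 2.26% lower. Here 7 of the 10 had an unadjusted p under 0.05, against 19.7% of all genes. The share called among all genes depended on single libraries in the comparisons of HFpEF-scr with HFpEF-FoxO1-sh and with control, where leaving out 1 library moved the number of genes called by more than 1.5 times. The 3 comparisons share their groups pairwise, so they are not independent of each other.

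The 10 genes did not move as a block. The median log2 fold change over the 10 was 0.09 for HFpEF-FoxO1-sh against control, 0.08 for HFpEF-FoxO1-sh against HFpEF-scr and 0.00 for HFpEF-scr against control, beside a median of 0.00 over all genes tested in each. In the same order 8, 7 and 5 of the 10 lay above 0. The median size of the change, without its sign, was 0.11, 0.13 and 0.13 for the 10 genes and 0.11, 0.10 and 0.11 for all genes tested. Of calls over all genes, 36.8% were higher for HFpEF-FoxO1-sh against HFpEF-scr with TMM and 22.2% with library totals alone, and for HFpEF-FoxO1-sh against control the shares were 51.5% and 40%.

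**Figure D1:**
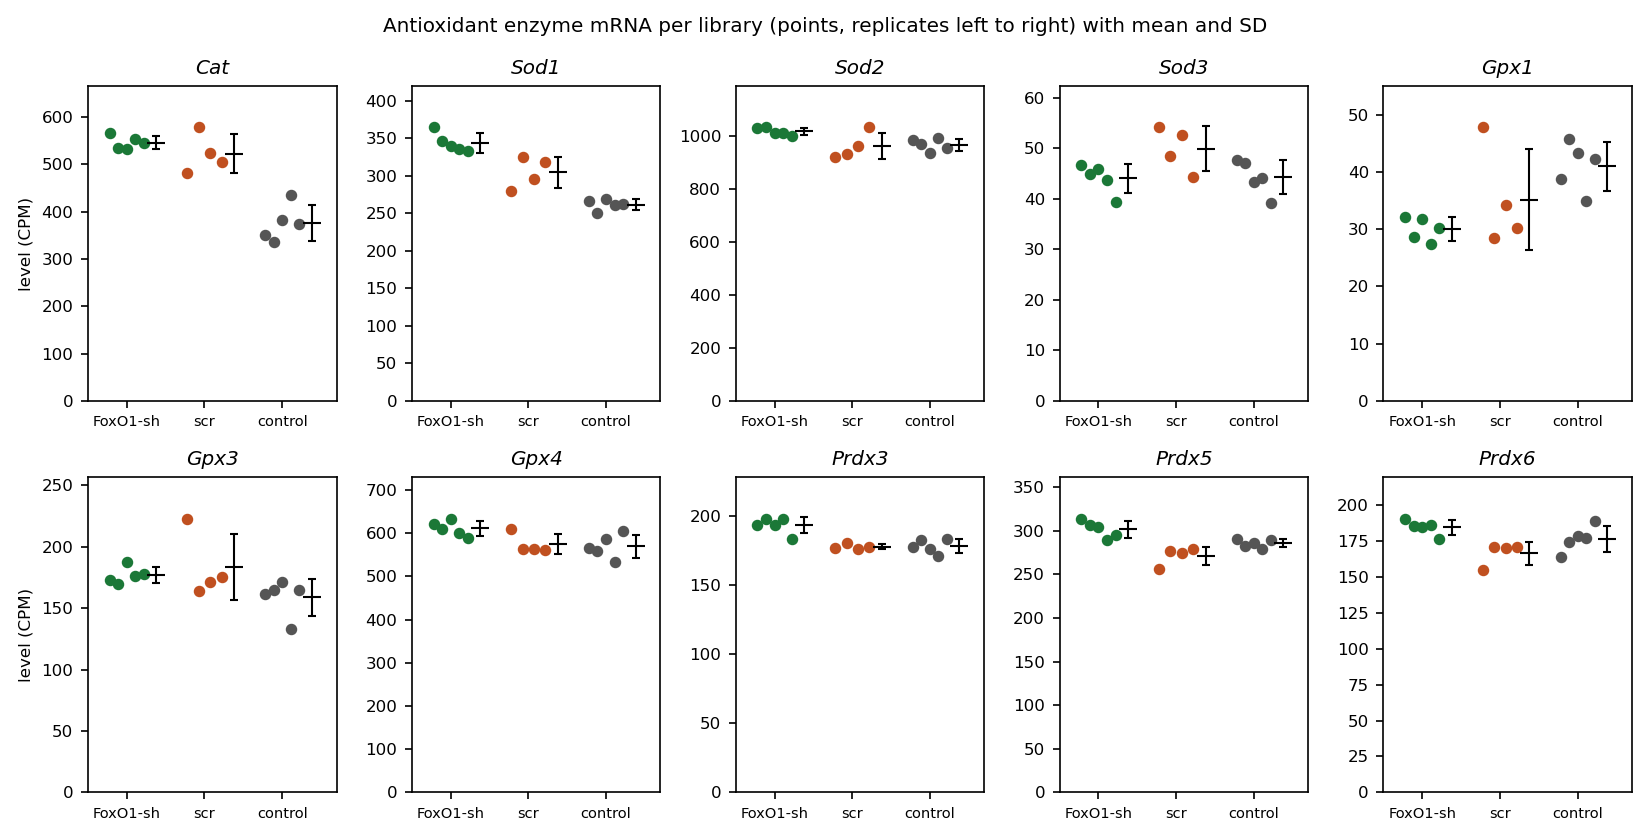
Level of each antioxidant gene in CPM (vertical axes, starting at 0) in every library of HFpEF-FoxO1-sh (green, n = 5), HFpEF-scr (orange, n = 4) and control (grey, n = 5), with replicates in number order from left to right and the group mean and SD in black. Cat is higher in both HFpEF groups than in control, Sod1 differs between all 3, and 1 HFpEF-scr library lies above the rest of its group for Gpx1 and Gpx3.

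Catalase showed the widest difference from control among the 10. Cat had 565, 535, 531, 553 and 544 CPM in HFpEF-FoxO1-sh 1 to 5, 482, 579, 524 and 504 CPM in HFpEF-scr 1 to 4 and 351, 336, 381, 435 and 374 CPM in control 1 to 5. Every library of both HFpEF groups lay above every control, while the HFpEF-FoxO1-sh values fell inside the range of HFpEF-scr. The means were 546 ± 13.6, 522 ± 41.5 and 375 ± 37.7 CPM (SD, n = 5, 4 and 5). The log2 fold change was 0.54 ± 0.06 for HFpEF-FoxO1-sh against control (SE, adjusted p = 3.73e-05, edgeR) and 0.48 ± 0.06 for HFpEF-scr against control (adjusted p = 0.000446, edgeR). The rise of 39% in HFpEF-scr had a 95% interval of 26.4% to 52.9%. Ranked by p among the 13588 genes, Cat stood at place 54 and place 47 in these comparisons. Between HFpEF-FoxO1-sh and HFpEF-scr the log2 fold change of Cat was 0.06 ± 0.07, with a 95% interval of -0.07 to 0.20 (adjusted p = 0.633, edgeR). Tested against a fold of 1.2 instead of against no change, Cat still passed for HFpEF-FoxO1-sh against control (adjusted p = 0.00544, edgeR's glmTreat) and did not for HFpEF-scr against control (adjusted p = 0.0797).

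Sod1, the copper and zinc enzyme of the cytosol, was the only one of the 10 to pass the test in all 3 comparisons. It had 365, 346, 339.7, 335 and 332 CPM in HFpEF-FoxO1-sh 1 to 5, 279, 325, 296 and 318 CPM in HFpEF-scr 1 to 4 and 266, 250.3, 269, 261 and 262 CPM in control 1 to 5. The 3 groups formed 3 bands that did not overlap. Sod1 averaged 344 ± 12.9, 304 ± 21.1 and 261 ± 7.02 CPM (SD). Its log2 fold change was 0.39 ± 0.04 for HFpEF-FoxO1-sh against control (SE, adjusted p = 3.15e-05, edgeR), 0.18 ± 0.05 for HFpEF-FoxO1-sh against HFpEF-scr (adjusted p = 0.0481) and 0.22 ± 0.05 for HFpEF-scr against control (adjusted p = 0.0111). The second of these calls lay close to the threshold, and leaving out any of 6 libraries ended it. The adjusted p was 0.118 without HFpEF-scr 1, 0.103 without HFpEF-scr 3, and 0.115, 0.0913, 0.0778 and 0.0786 without HFpEF-FoxO1-sh 1, 2, 3 and 4, and the calls against control held without any 1 library.

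The mitochondrial and extracellular dismutases did not pass the test in any comparison. Sod2, the manganese enzyme of the mitochondrial matrix, was the steadiest of the 10, with 999 to 1034 CPM in HFpEF-FoxO1-sh, 923 to 1033 CPM in HFpEF-scr and 936 to 992 CPM in control. Its highest library was 1.12 times its lowest. Its log2 fold change was 0.07 for HFpEF-FoxO1-sh against control, 0.08 for HFpEF-FoxO1-sh against HFpEF-scr and -0.01 for HFpEF-scr against control (adjusted p = 0.189, 0.239 and 0.930, edgeR). Sod2 is the only one of the 10 whose expected counts were not whole numbers, in all 14 libraries, so a part of its reads was shared out between it and other sequence.

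Sod3, which is secreted and binds to the cell surface and matrix, had 39.3 to 46.6 CPM in HFpEF-FoxO1-sh, 44.2 to 54.2 CPM in HFpEF-scr and 39.1 to 47.6 CPM in control. Its log2 fold change was -0.18 ± 0.07 for HFpEF-FoxO1-sh against HFpEF-scr and 0.17 ± 0.07 for HFpEF-scr against control (SE, adjusted p = 0.163 and 0.151, edgeR). For HFpEF-FoxO1-sh against control it was -0.01 (adjusted p = 0.966). Markers of pericytes and smooth muscle had a similar order of levels, with sums of 395 to 449 CPM in HFpEF-FoxO1-sh, 467 to 522 CPM in HFpEF-scr and 389.8 to 426 CPM in control, and 3 of the 6 rose in HFpEF-scr against control. Fibroblast markers summed to 575 to 726, 698 to 796 and 633 to 728 CPM, and 2 of the 6 rose in that comparison. The part of these cells in the Sod3 values was not tested, and in bulk tissue fewer cells of a type and less RNA per cell cannot be told apart.

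Gpx1, the selenium enzyme that reduces hydrogen peroxide with glutathione in the cytosol and mitochondria, was the only one of the 10 to fall. It had 32.2, 28.6, 31.7, 27.4 and 30.2 CPM in HFpEF-FoxO1-sh 1 to 5, 47.9, 28.4, 34.2 and 30.2 CPM in HFpEF-scr 1 to 4 and 38.7, 45.8, 43.4, 34.9 and 42.2 CPM in control 1 to 5. All HFpEF-FoxO1-sh libraries lay below all controls, and so did 3 of the 4 HFpEF-scr libraries, while HFpEF-scr 1 had the highest value of all 14. The means were 30.0 ± 2.04, 35.2 ± 8.80 and 41.0 ± 4.26 CPM (SD). For HFpEF-FoxO1-sh against control the log2 fold change was -0.45 ± 0.11 (SE, adjusted p = 0.0180, edgeR), and without each of the 10 libraries in turn the adjusted p ran from 0.0127 to 0.0495. HFpEF-scr against control gave -0.22 ± 0.12 (adjusted p = 0.289), and HFpEF-FoxO1-sh against HFpEF-scr gave -0.23 ± 0.12 (adjusted p = 0.325).

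HFpEF-scr 1 decided the place of HFpEF-scr for this gene. Without HFpEF-scr 1 the log2 fold change of Gpx1 was -0.41 for HFpEF-scr against control (adjusted p = 0.0109, edgeR) and -0.04 for HFpEF-FoxO1-sh against HFpEF-scr (adjusted p = 0.859). The summed red cell markers were 699.7 to 1635 CPM in HFpEF-FoxO1-sh, 5755 CPM in HFpEF-scr 1, 520.1 to 1074 CPM in the other 3 HFpEF-scr libraries and 991 to 1423 CPM in control. The 6 red cell markers had log2 fold changes below 0 for HFpEF-FoxO1-sh against both other groups, and none of them passed the test. HFpEF-scr 1 also had the lowest cardiomyocyte sum (78112 CPM) and the highest endothelial sum (1352 CPM) of any library. Levels in bulk tissue mix all its cells, so these values do not show the red cell part. Macrophage markers summed to 78.0 to 101 CPM in HFpEF-FoxO1-sh, 107 to 138 CPM in HFpEF-scr and 113 to 155 CPM in control, and 5 of the 6 fell in HFpEF-FoxO1-sh against control. The part of red cells, macrophages and other cells in the Gpx1 values was not tested.

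**Figure D2:**
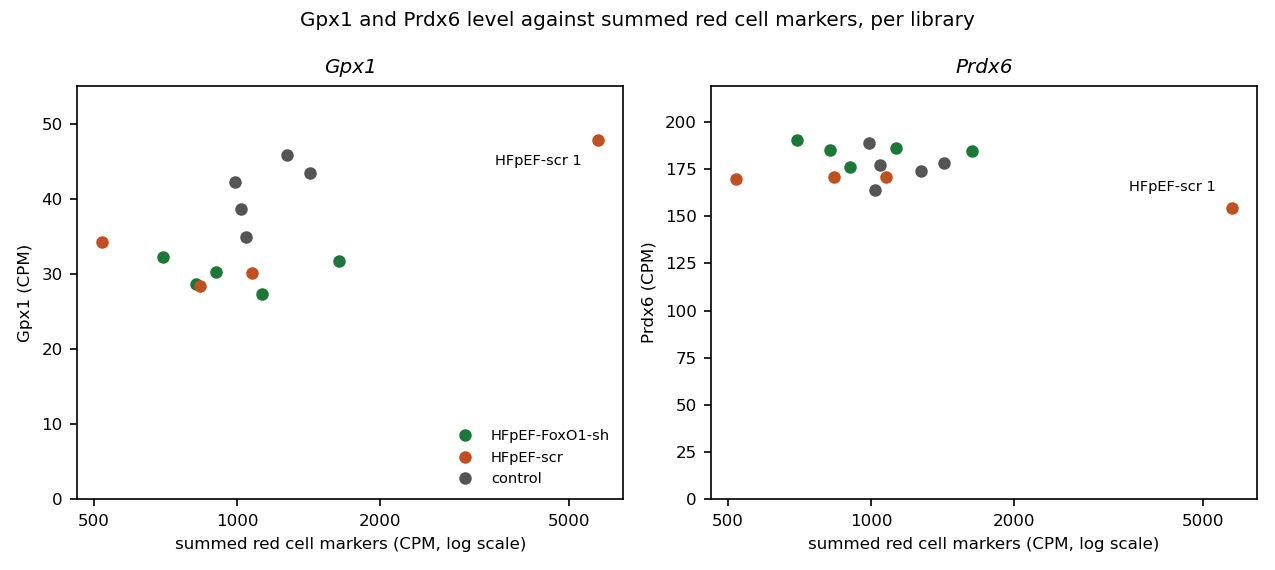
Level of Gpx1 (left) and Prdx6 (right) in CPM against the summed level of 6 red cell markers in CPM on a log scale, 1 point per library, for HFpEF-FoxO1-sh (green), HFpEF-scr (orange) and control (grey). HFpEF-scr 1, at 5755 CPM of red cell markers, has the highest Gpx1 (47.9 CPM) and the lowest Prdx6 (154 CPM) of the 14.

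The other 2 glutathione peroxidases did not pass the test. Gpx3, the secreted plasma enzyme, had 169.8 to 187 CPM in HFpEF-FoxO1-sh, 164 to 223 CPM in HFpEF-scr and 133 to 171 CPM in control. The 223 CPM again belonged to HFpEF-scr 1, and the other 3 libraries of that group had 164 to 176 CPM. Log2 fold changes of Gpx3 were 0.15 for HFpEF-FoxO1-sh against control, -0.05 for HFpEF-FoxO1-sh against HFpEF-scr and 0.21 for HFpEF-scr against control (adjusted p = 0.219, 0.780 and 0.142, edgeR). Without HFpEF-scr 1 the difference between HFpEF-FoxO1-sh and HFpEF-scr turned to 0.06, and that between HFpEF-scr and control was 0.10 (adjusted p = 0.403).

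Gpx4, which reduces lipid peroxides in membranes and restrains ferroptosis, had 589 to 634 CPM in HFpEF-FoxO1-sh, 561 to 609 CPM in HFpEF-scr and 534 to 604 CPM in control. The log2 fold change of Gpx4 was 0.10 for HFpEF-FoxO1-sh against control, 0.09 for HFpEF-FoxO1-sh against HFpEF-scr and 0.01 for HFpEF-scr against control (adjusted p = 0.105, 0.243 and 0.909, edgeR). For this gene the 95% interval of HFpEF-scr against control was -0.08 to 0.10.

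All 3 peroxiredoxins among the 10 had their highest mean in the libraries labelled HFpEF-FoxO1-sh, and their differences were small. Cat, Sod1, Sod2 and Gpx4 had their highest mean there too. Of the tested peroxiredoxins outside the 10, Prdx1 did as well, while Prdx2 and Prdx4 had their highest means in control. Prdx4 had its lowest mean in HFpEF-FoxO1-sh, at 10.7 CPM against 11.3 CPM in HFpEF-scr and 12.1 CPM in control. Prdx3, which lies in the mitochondrial matrix, had 194, 198, 194, 198 and 184 CPM in HFpEF-FoxO1-sh 1 to 5, 177, 181, 176 and 178 CPM in HFpEF-scr 1 to 4 and 178, 183, 176, 171 and 183 CPM in control 1 to 5. The HFpEF-FoxO1-sh libraries lay above all others, although the lowest (183.5 CPM) exceeded the highest control (183.2 CPM) by little. The log2 fold change of Prdx3 was 0.12 ± 0.03 against control (SE, adjusted p = 0.0314, edgeR), 0.12 ± 0.04 against HFpEF-scr (adjusted p = 0.0694) and 0.00 for HFpEF-scr against control (adjusted p = 0.968). The call against control was lost in 7 of the 10 fits without 1 library. The adjusted p was 0.0640, 0.0716, 0.0630 and 0.0711 without HFpEF-FoxO1-sh 1, 2, 3 and 4, and 0.0542, 0.0786 and 0.0680 without control 1, 3 and 4, while without HFpEF-FoxO1-sh 5 the difference from HFpEF-scr was called (adjusted p = 0.0437).

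Prdx5, found in mitochondria, peroxisomes and the cytosol, had 314, 306, 305, 289 and 295 CPM in HFpEF-FoxO1-sh 1 to 5, 256, 276, 275 and 279 CPM in HFpEF-scr 1 to 4 and 291, 282, 286, 279.5 and 289 CPM in control 1 to 5. HFpEF-FoxO1-sh lay wholly above HFpEF-scr, control wholly above HFpEF-scr by a narrow margin, and HFpEF-FoxO1-sh overlapped control. Prdx5 averaged 302 ± 9.79, 271 ± 10.2 and 286 ± 4.68 CPM (SD). Its log2 fold change was 0.15 ± 0.04 for HFpEF-FoxO1-sh against HFpEF-scr (SE, adjusted p = 0.0352, edgeR), 0.08 ± 0.04 for HFpEF-FoxO1-sh against control (adjusted p = 0.155) and -0.07 ± 0.04 for HFpEF-scr against control (adjusted p = 0.246). The call was lost without HFpEF-scr 1, 2 or 3 (adjusted p = 0.0875, 0.0541 and 0.0614) and without HFpEF-FoxO1-sh 1, 2 or 3 (0.0898, 0.0754 and 0.0683). The strand used in counting is not given in the sources used here, so reads of Prdx5 and Trmt112 in their shared exons may not have been told apart. Trmt112 had 25.0, 24.2 and 24.5 CPM on average in HFpEF-FoxO1-sh, HFpEF-scr and control, with a log2 fold change of 0.05 ± 0.08 for HFpEF-FoxO1-sh against HFpEF-scr (adjusted p = 0.798).

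Prdx6, a peroxiredoxin with 1 reactive cysteine that works with glutathione and also cuts phospholipids, had 176 to 191 CPM in HFpEF-FoxO1-sh, 154 to 171 CPM in HFpEF-scr and 164 to 189 CPM in control. HFpEF-FoxO1-sh lay above HFpEF-scr without overlap, as it did for Sod1, Prdx3 and Prdx5. So 4 of the 10 genes had groups that did not overlap in this comparison, against 8.34% of all genes tested. The log2 fold change of Prdx6 was 0.15 ± 0.05 for HFpEF-FoxO1-sh against HFpEF-scr (SE, adjusted p = 0.0773, edgeR), 0.07 for HFpEF-FoxO1-sh against control and -0.08 for HFpEF-scr against control (adjusted p = 0.359 and 0.291). DESeq2, run on the same libraries, also called Prdx3 and Prdx6 in HFpEF-FoxO1-sh against HFpEF-scr (adjusted p = 0.0237 and 0.0418). Beside the values of the peroxiredoxins, 5 of the 6 cardiomyocyte markers had log2 fold changes above 0 in that comparison and none passed, all 6 fibroblast markers lay below 0 with 2 called, and all 6 of pericytes and smooth muscle lay below 0 with none called. All 6 macrophage markers lay below 0 with 2 called, and 4 of the 6 endothelial markers lay below 0 with 1 called lower. Endothelial markers summed to 910 to 963 CPM in HFpEF-FoxO1-sh, 930 to 1352 CPM in HFpEF-scr and 982 to 1086 CPM in control, so that HFpEF-FoxO1-sh lay below control without overlap. The 1352 CPM belonged to HFpEF-scr 1. The part of these cells was not tested.

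**Figure D3:**
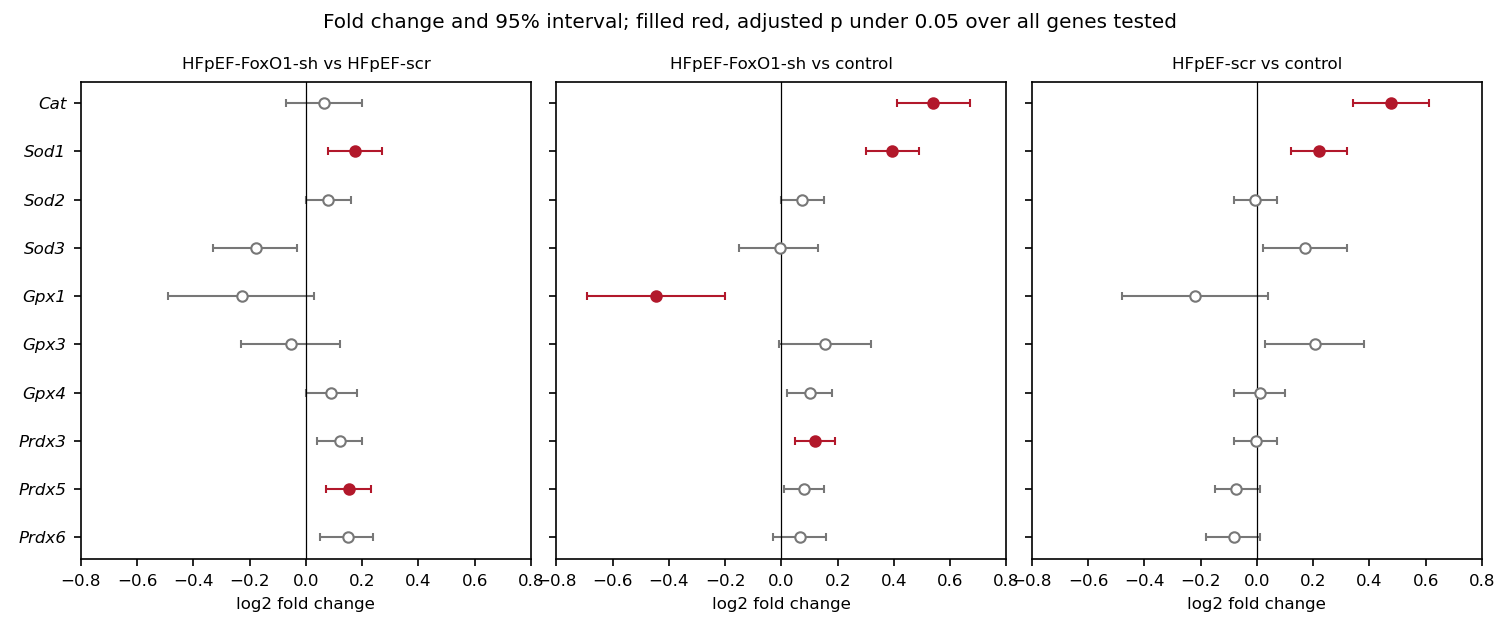
Log2 fold change (horizontal axes) of the 10 genes in HFpEF-FoxO1-sh against HFpEF-scr, HFpEF-FoxO1-sh against control and HFpEF-scr against control, with 95% intervals as bars, where filled red points passed an adjusted p of 0.05 over all genes tested. Cat and Sod1 lie right of 0 in both comparisons with control, and Gpx1 lies left of 0 with the widest intervals.

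Relative to the exon length of each gene, the order of the 10 levels differed at its top between the groups. The length was all exon bases of the coding transcripts, with no correction for fragment length. Such a correction weighs most on short genes, and Sod1 has 641 exon bases against 1272 for Gpx4. The order of Sod1 and Gpx4 within a group may therefore depend on this choice. Sod1 stood first at 536 CPM per kb of exon in HFpEF-FoxO1-sh, ahead of Gpx4 at 480.1 CPM per kb and without overlap. In HFpEF-scr Sod1 was at 475 and Gpx4 at 451 CPM per kb, with overlapping libraries, and in control Gpx4 was at 448 and Sod1 at 408 CPM per kb, where the lowest library of Gpx4 (419.9 CPM per kb) lay just above the highest of Sod1 (419.3 CPM per kb). Cat was level with Prdx5 in HFpEF-FoxO1-sh, both at 209 CPM per kb, and lay below Prdx5 and Sod2 in control, at 144 CPM per kb against 197 and 165. Sod2, whose exons add up to 5861 bases, stood in the middle, and Gpx1 and Sod3 stood last in every group, at 28.0 and 11.8 CPM per kb in HFpEF-FoxO1-sh and 38.2 and 11.8 CPM per kb in control.

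**Figure D4:**
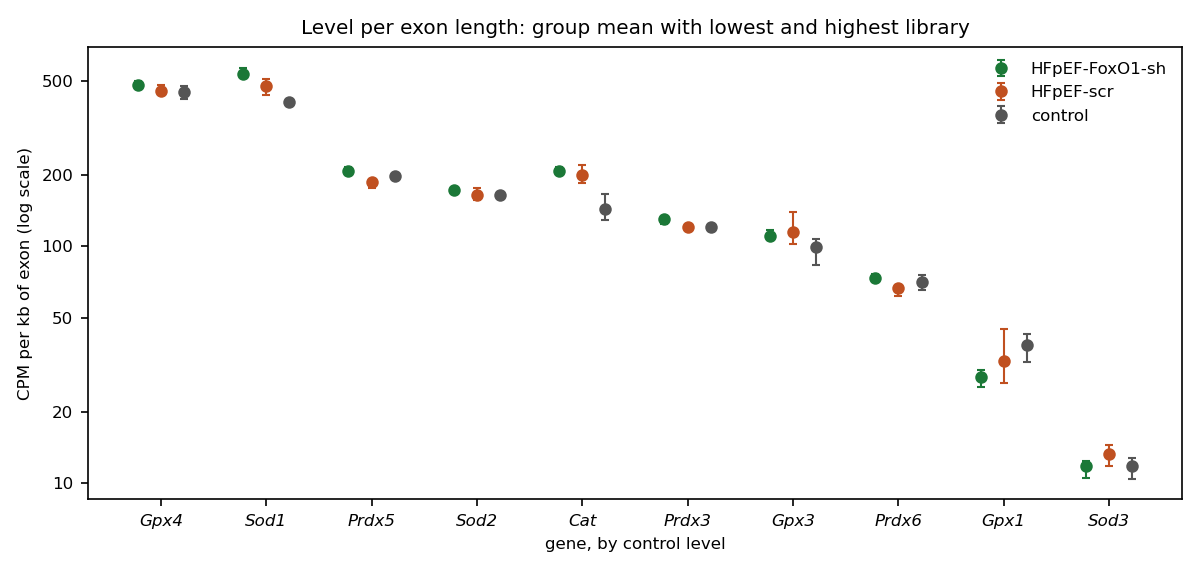
Level per kb of exon (CPM per kb, log scale) of the 10 genes ordered by their control level, as group means with bars from the lowest to the highest library, for HFpEF-FoxO1-sh (green, n = 5), HFpEF-scr (orange, n = 4) and control (grey, n = 5). Sod1 and Cat shift upward in both HFpEF groups, and Gpx1 and Sod3 are lowest throughout.

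The genes that serve these enzymes were followed in 7 lists with 79 tested genes, counted here as a description since 1 gene was taken out of a list. For HFpEF-FoxO1-sh against control 7 rose and 4 fell (13.9%), for HFpEF-FoxO1-sh against HFpEF-scr 1 rose and 1 fell (2.53%), and for HFpEF-scr against control 3 rose and 4 fell (8.86%). In the same order 13.0%, 3.58% and 7.37% of all genes tested were called, and the list counts below are not read as differing from these shares. The calls were spread over several lists.

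Catalase works in peroxisomes, and genes of that organelle formed the longest list. Of 18 tested genes of peroxisome import and peroxisomal oxidases, 2 rose and none fell in HFpEF-FoxO1-sh against control, and 1 rose and none fell in HFpEF-scr against control. Pex11a, which acts in peroxisome division, averaged 11.5 ± 1.09 CPM in HFpEF-FoxO1-sh, 11.4 ± 1.61 CPM in HFpEF-scr and 7.48 ± 0.808 CPM in control (SD). It rose in both comparisons, by 0.61 and 0.60 on the log2 scale (adjusted p = 0.00133 and 0.00484, edgeR). Pex19, an import receptor for membrane proteins, rose by 0.19 on the log2 scale in HFpEF-FoxO1-sh against control (adjusted p = 0.00325).

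Among 12 tested genes of NADPH supply, which feeds glutathione and thioredoxin reduction, 3 rose and 1 fell in HFpEF-FoxO1-sh against control, 1 rose in HFpEF-FoxO1-sh against HFpEF-scr and 2 rose in HFpEF-scr against control. Idh1, the cytosolic and peroxisomal isocitrate dehydrogenase, was at 75.9 ± 2.11 CPM in HFpEF-FoxO1-sh, 57.1 ± 3.37 CPM in HFpEF-scr and 60.0 ± 4.87 CPM in control (SD). It rose against HFpEF-scr (log2 fold change 0.41, adjusted p = 0.002, edgeR) and against control (0.34, adjusted p = 0.000833). Malic enzyme Me1 rose by 0.53 on the log2 scale in HFpEF-FoxO1-sh and by 0.43 in HFpEF-scr, both against control (adjusted p = 0.000222 and 0.00421), as did the mitochondrial NAD kinase Nadk2, by 0.36 and 0.21 (adjusted p = 0.000446 and 0.0353). Me2, a mitochondrial malic enzyme, fell by 0.39 in HFpEF-FoxO1-sh against control (adjusted p = 0.0157), from 11.4 to 8.71 CPM on average. Me3, another mitochondrial malic enzyme, did not pass there (log2 fold change 0.11, adjusted p = 0.299, edgeR). It averaged 97.0 CPM in HFpEF-FoxO1-sh and 90.0 CPM in control.

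Of 6 tested genes of other peroxiredoxins, glutathione peroxidases and Ccs, the copper chaperone of Sod1, 1 rose in HFpEF-FoxO1-sh against control and 1 fell in HFpEF-scr against control. Prdx1, a cytosolic peroxiredoxin, was the one that rose, by 0.25 on the log2 scale (adjusted p = 0.000238, edgeR), with 179.6 ± 5.34 CPM in HFpEF-FoxO1-sh, 164 ± 3.49 CPM in HFpEF-scr and 151 ± 4.69 CPM in control (SD). Ccs fell by 0.23 in HFpEF-scr against control, close to the threshold (adjusted p = 0.0491, edgeR). In HFpEF-FoxO1-sh it did not pass against control (log2 fold change -0.04, adjusted p = 0.709) or against HFpEF-scr (0.18, adjusted p = 0.131). Sod1 rose in each of these comparisons. Of 15 tested thioredoxin and glutaredoxin genes only Glrx, a cytosolic glutaredoxin, was called, and in HFpEF-scr it was lower than in control by a log2 fold change of -0.24 (adjusted p = 0.0222). None of 9 tested genes of glutathione synthesis and reduction was called in any comparison.

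Of 9 tested genes of selenoprotein synthesis, which Gpx1, Gpx3 and Gpx4 need, 2 fell in HFpEF-FoxO1-sh against control and 1 in HFpEF-scr against control. Scly, which frees selenium from selenocysteine, fell by 0.28 and by 0.32 on the log2 scale in these comparisons (adjusted p = 0.0109 and 0.0128, edgeR). Lrp8, a receptor for the selenium carrier Selenop, fell by 0.89 in HFpEF-FoxO1-sh against control (adjusted p = 0.0405) at low levels, with 0.958 CPM on average in HFpEF-FoxO1-sh and 1.78 CPM in control.

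Among 10 tested sources of superoxide and hydrogen peroxide, the phagocyte oxidase subunit Cyba fell against control by 0.37 in HFpEF-FoxO1-sh (adjusted p = 0.0199, edgeR) and by 0.38 in HFpEF-scr (0.0347). Ncf1, another subunit of that oxidase, had 2.99 ± 0.552 CPM in HFpEF-FoxO1-sh and 4.60 ± 0.453 CPM in HFpEF-scr (SD) and fell by 0.62 (adjusted p = 0.0299). The macrophage marker sums given with Gpx1 were also lower in HFpEF-FoxO1-sh than in HFpEF-scr, without overlap. Cyba did not differ in that comparison (log2 fold change 0.01, adjusted p = 0.964, edgeR). Against control, where Cyba fell in both groups, 5 of the 6 macrophage markers fell in HFpEF-FoxO1-sh and none was called in HFpEF-scr. The part of macrophages in the values of Ncf1 and Cyba was not tested. Xdh, xanthine dehydrogenase, rose by 0.75 in HFpEF-FoxO1-sh against control (adjusted p = 0.00218).

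**Figure D5:**
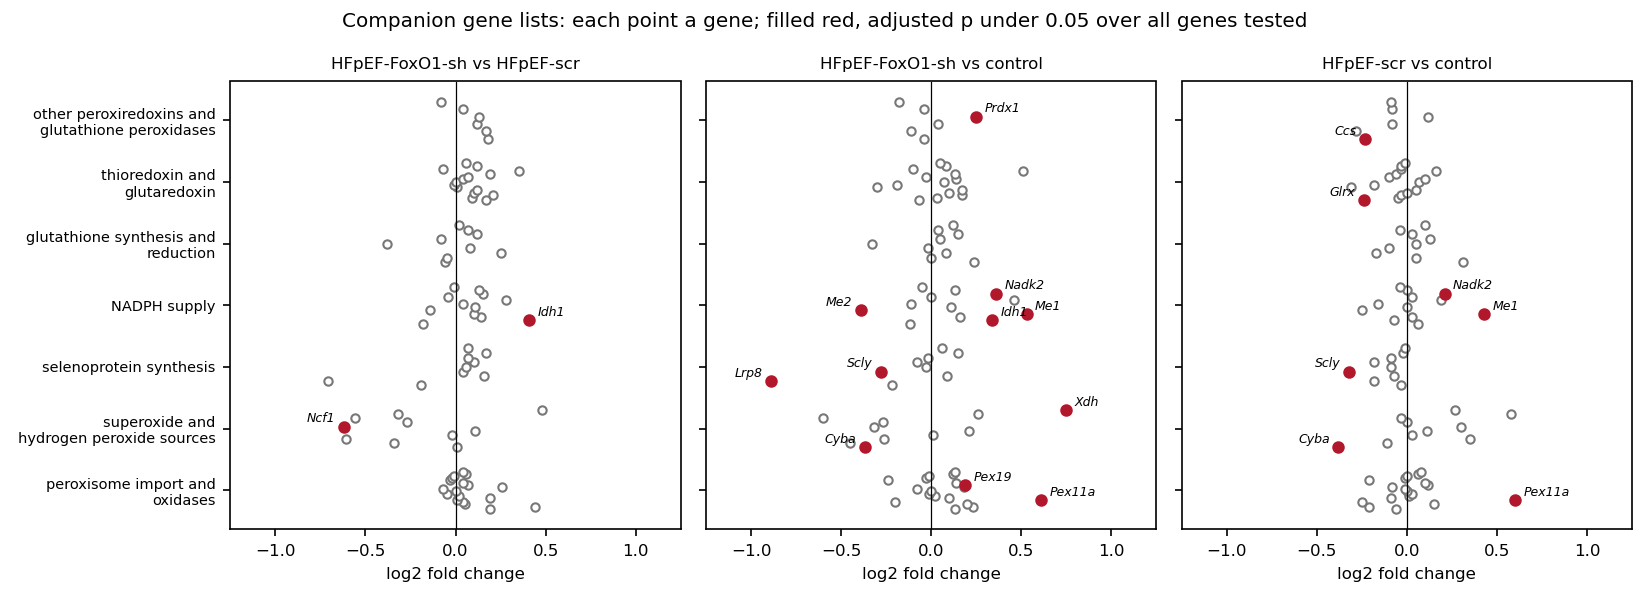
Log2 fold change (horizontal axes) of each tested gene in 7 lists of genes that serve or supply the antioxidant enzymes, for HFpEF-FoxO1-sh against HFpEF-scr, HFpEF-FoxO1-sh against control and HFpEF-scr against control, where filled red points passed an adjusted p of 0.05 over all genes tested. Named points are the called genes, among them Pex11a and Me1 in both comparisons with control and Idh1 in both comparisons of HFpEF-FoxO1-sh.

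The genes whose levels ran closest to each called gene were sought by the root mean square (RMS) difference of centred log2 CPM over all 14 libraries, over the 11322 genes that averaged 2 CPM or more. Closest to Cat were Cpt2, Hadhb and Hadha, 3 genes of mitochondrial fatty acid oxidation, with RMS differences of 0.059, 0.061 and 0.062 beside a median of 0.297 over the genes searched. Cpt2, which completes the transfer of fatty acids into mitochondria, averaged 359 ± 7.53 CPM in HFpEF-FoxO1-sh, 325 ± 29.4 CPM in HFpEF-scr and 239 ± 19.2 CPM in control (SD). Closest to Sod1 were Skp1a, Acyp2 and Eif3m (0.04, 0.05 and 0.057, median 0.222). Closest to Gpx1 were Ckb, Ctsz and Rragd (0.106, 0.116 and 0.119, median 0.296), a looser likeness than for Cat. Closest to Prdx5 were Hibadh, Ndufa10 and Uqcrfs1, of which the last 2 are subunits of respiratory complexes, at 0.03, 0.032 and 0.032 (median 0.151). A gene that did not vary at all would lie at 0.072 from Prdx5. Closest to Prdx3 were Psmc2, Rnf7 and Chchd2 (0.036, 0.037 and 0.037), where a flat gene would lie at 0.066. These distances describe the same 14 libraries and carry no test.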

How the data were processed

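RNA-seq of 14 left ventricle libraries was analysed. The authors deposited expected counts per gene, and Bowtie2 2.1.0, RSEM 1.2.15 and mm10 are named in the submitters' processing notes without their roles. Per the labels' protocols, RNA was poly(A)-selected before library construction. The gene annotation and the strand used in counting are not given in the sources used here.

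Expected counts were rounded and fitted with edgeR 4.0.16 (R 4.3.3, filterByExpr, TMM, quasi-likelihood, 1 coefficient per group, all 14 libraries). Adjusted p are two-sided Benjamini-Hochberg values over 13588 genes, called under 0.05. Alternatives used DESeq2 1.42.0, limma 3.58.1 and other settings given below. The procedure was tested on simulated data, with changed genes drawn from all levels. Of genes changed 1.25-fold it called 34.9% for HFpEF-scr against control and 32.1% for HFpEF-FoxO1-sh against HFpEF-scr. For HFpEF-FoxO1-sh against control it called 31.8%. A gene that did not pass the test may therefore still differ. Within each group no 2 libraries were duplicates, and pairs across groups were not examined for this.

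The genes, gene lists and tests were chosen with earlier results of these data known. Named genes are the 10 enzymes, Foxo1, up to 4 called genes per list and comparison, and the 3 most alike genes of each called enzyme. One gene was taken out of these lists after its values were seen, for a reason unrelated to them, and is not reported here. Marker genes appear as sums. Prdx2 and Prdx4 are not markers but belong to the list of other peroxiredoxins and glutathione peroxidases, and Me3 belongs to that of NADPH supply. These genes were called in no comparison and were named after their values were seen.

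Promoters are from RefSeq (GRCm38.p6), and positions and exon lengths from GENCODE vM21. The Python version was 3.11.15.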

Additional observations from a re-analysis of the deposited data

Results flagged for a closer look

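Single libraries that lay far from the rest of their group were looked for in each of the 3 groups for the 10 genes and Foxo1, by the gap to the nearest library relative to the range of the group (Dixon's criterion at the 95% level). Of 33 groups examined 3 met it, and chance gives about 1 in 20. Gpx3 had 133 CPM in control 4, against 161 CPM in the nearest control. Gpx4 had 609 CPM in HFpEF-scr 1, against 563 CPM in the nearest HFpEF-scr library. Prdx6 had 154 CPM in HFpEF-scr 1, against 169.8 CPM in the nearest HFpEF-scr library. HFpEF-scr 1 is also the library with 5755 CPM of summed red cell markers. It had the highest endothelial sum (1352 CPM) and the lowest cardiomyocyte sum (78112 CPM) of any library. The part of red cells and other cells in these values was not tested. Gpx1 and Gpx3 in the same library, at 47.9 and 223 CPM, did not meet the criterion.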

How the results depend on the processing

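The rises of Cat and Sod1 against control kept their calls in both comparisons without any 1 library and with every other setting but the test against a fold of 1.2. Against that fold 0 genes of the 10 were called for HFpEF-FoxO1-sh against HFpEF-scr, 1 (Cat) for HFpEF-FoxO1-sh against control and 0 for HFpEF-scr against control. For HFpEF-FoxO1-sh against HFpEF-scr the 2 calls became 1 with library totals alone, 4 with DESeq2, and 0 without a filter on low counts, with only the 2 groups compared, with the immediate early score as a covariate, or with HFpEF-scr 1 and 2 left out together (a setting chosen after seeing the data). Without 1 library each, the calls numbered 0 to 3 for HFpEF-FoxO1-sh against HFpEF-scr, 3 to 4 for HFpEF-FoxO1-sh against control and 2 to 3 for HFpEF-scr against control. The fall of Gpx1 in HFpEF-FoxO1-sh against control was lost in the test against a fold of 1.2 (adjusted p = 0.401) and in no other of these settings. The Prdx3 call against control was also lost with library totals alone (adjusted p = 0.101) and without a filter (0.0641, edgeR).

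With the replicate number as a block 0 of the 10 were called for HFpEF-FoxO1-sh against HFpEF-scr (adjusted p = 0.107 for Sod1 and 0.0953 for Prdx5, edgeR), 291 genes of all tested against 486, and the Prdx3 call against control was lost (0.0689). Libraries of the same number were little alike, since 1 of 13 same-number pairs correlated above 0.1 (range -0.194 to 0.111). A pairing in another order than these numbers was not tested, and the block on the number cannot decide on one.

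Signs turned only near 0, as log2 fold changes. For HFpEF-scr against control these were Prdx3 without a filter (0.0011), Sod2 and Gpx4 with the immediate early covariate (0.007 and -0.0006) and with HFpEF-scr 1 and 2 left out (0.0421 and -0.0205). Further cases were Gpx3 against HFpEF-scr with those libraries left out (0.0281) and Sod3 in HFpEF-FoxO1-sh against control with the covariate (0.0011). Without 1 library, ranges that crossed 0 were -0.0442 to 0.0098 for Sod2, -0.0217 to 0.0328 for Gpx4 and -0.0173 to 0.0068 for Prdx3 in HFpEF-scr against control, -0.10 to 0.0566 for Gpx3 in HFpEF-FoxO1-sh against HFpEF-scr, and -0.0473 to 0.0323 for Sod3 in HFpEF-FoxO1-sh against control.

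Genes called of all tested moved from 1001 to 504 with only 2 groups, 398 with the covariate, 560 with HFpEF-scr 1 and 2 left out and 56 against a fold of 1.2 for HFpEF-scr against control. For HFpEF-FoxO1-sh against HFpEF-scr 486 became 876 with DESeq2, 236 with the covariate, 54 with both libraries left out and 16 against the fold, and for HFpEF-FoxO1-sh against control 1760 became 218 against the fold. Without 1 library, genes called of all tested numbered 162 to 668 for HFpEF-FoxO1-sh against HFpEF-scr, 1228 to 1683 for HFpEF-FoxO1-sh against control and 537 to 1106 for HFpEF-scr against control. Against 486 the counts were 245, 314 and 279 without HFpEF-scr 1, 2 and 3 and 162, 253, 241 and 198 without HFpEF-FoxO1-sh 1 to 4. Against 1001 they were 598 and 546 without HFpEF-scr 2 and 4 and 643 and 537 without control 2 and 3. Where a call changed, the cause was not tested. The immediate early score was 2.87 to 4.88 in HFpEF-FoxO1-sh, 3.99 to 5.91 in HFpEF-scr and 2.79 to 5.28 in control. Gpx1, with 383 counts in its lowest library, had the largest standard errors of the 10.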
